A study of Mus musculus with 2 samples.

Results

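The genes described here encode 10 enzymes that remove reactive oxygen species or repair what they oxidise: *Cat*, *Prdx1*, *Prdx2*, *Gpx1*, *Gpx4*, *Sod1*, *Sod2*, *Txn1*, *Txnrd1* and *Mgst3*. They were chosen by symbol, and each symbol matched 1 of the 27998 genes of the count table. Their transcripts were followed in 1 CITE-seq experiment on fetal livers of 7 pooled C57BL/6 mouse embryos at e13.5, with no mutation and no treatment in any group. CITE-seq reads the transcripts of single cells together with barcoded antibodies, here against Ter119, an antigen of maturing erythroid cells, and CD71, the transferrin receptor. The data are 1 cDNA library and 1 antibody library of the same cells, so there are no replicates and no p-values are given. The Ter119+ and Ter119- cells were separated with magnets and mixed again in equal numbers, so the sizes of the groups do not describe the liver.

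Superoxide dismutases turn superoxide into hydrogen peroxide. Catalase, the glutathione peroxidases and the peroxiredoxins then remove the peroxide, the last of these with electrons from thioredoxin and its reductase. Red cells carry iron and oxygen at high concentration and later lose their nuclei and mitochondria, and their peroxide defence is known to rest on catalase, glutathione peroxidase 1 and peroxiredoxin 2.

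The matrix holds 7863 cells, each with its own barcode and each with antibody counts, and 58606632 transcripts counted by unique molecular identifiers (UMIs). Depth ranged from 2510 to 38047 UMIs per cell. Of the 7244 cells that passed the filters, 6424 had low counts of 5 antibodies against other lineages. These were staged by their antibodies, since gate positions were not at hand, and cells of the hepatocyte-like, megakaryocyte-like, myeloid-like, macrophage-like and mesenchymal-like clusters were taken out of the stages. With low Ter119, low, medium and high CD71 defined S0-low (1261 cells), S0-medium (1048) and S1 (609). Intermediate Ter119 with high CD71 defined S2 (1294). With high Ter119, high CD71 defined S3 (836) and lower CD71 defined S4/S5 (895). The clusters named from their markers held 830 non-erythroid cells, of which 188 were hepatocyte-like, 95 megakaryocyte-like, 401 myeloid-like, 82 macrophage-like and 64 mesenchymal-like. The last also had the endothelial marker *Lyve1* among its 10 leading genes.

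The erythroid markers rose with the stage labels up to S3. The summed level of 8 erythroid markers, such as *Slc4a1* and *Alas2*, was 964 counts per 1000000 UMIs (CPM) in S0-low, 2392 in S1 and 5713 in S3, against 314 in the non-erythroid cells. In S4/S5 the sum was lower than in S3, at 4054 CPM. S0-low was the stage with most early progenitor and myeloid markers. Its 4 early progenitor markers summed to 401 CPM against 46.1 in S0-medium, and 9 myeloid markers to 390.2 against 79.1. The paper describes S0-low as early progenitors, mostly erythroid, so progenitor markers alone do not show impurity. That list also summed to 3054 CPM in myeloid-like cells. S0-low further held 205 cells of a cluster named early progenitor-like and 131 of an unnamed cluster with the mast cell gene *Cpa3* among its leading genes. Its 4 mast or basophil markers summed to 16.6 CPM against 1.19 in S0-medium. Without these 2 clusters, a choice made after the data were seen, S0-low held 925 cells.

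A level below is the mean over cells of CPM, unless another measure is named. Brackets hold 95% intervals that cover counting error only, and not differences between embryos, libraries or gates. Levels are compared within a gene and not between genes. CPM depends on the globin transcripts, which made up 1.10% of UMIs in S0-low, 2.81% in S1, 13.2% in S2, 37.9% in S3 and 64.3% in S4/S5. A gene whose transcripts do not change therefore falls in CPM as globin rises. Levels are for that reason also given per 1000000 UMIs of non-globin genes and, where they matter, as UMIs per cell. The median cell held 10116 UMIs in S1, 4522.5 in S3 and 3949 in S4/S5.

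The genes moved apart. A ratio is called higher here when it is at least 1.5 with an interval above 1, and lower by the inverse rule, among genes with at least 50 UMIs over the 2 groups. *Cat*, *Prdx2*, *Gpx1* and *Mgst3* were higher in S3 than in S0-low and S1 in CPM and among non-globin transcripts. In UMIs per cell S3 over S1 stayed above 1 for these 4 but passed the fold for *Gpx1* (1.71) and *Mgst3* (1.51) only, with *Cat* at 1.34 and *Prdx2* at 1.11. Without the clusters of early progenitor and mast markers S3 over S0-low went from 5.45 (5.32–5.57) to 4.56 (4.45–4.67) for *Prdx2* and from 9.95 (9.45–10.5) to 8.61 (8.15–9.11) for *Mgst3*, and *Prdx1* no longer passed the fold, at 0.674 (0.639–0.712). *Sod1*, *Sod2*, *Prdx1*, *Txn1* and *Txnrd1* fell from S1 to S3 in CPM, but none of them passed a fold of 1.5 among non-globin transcripts, and median-of-ratios size factors put all 5 slightly above 1 in the same comparison. *Gpx4* held its level in CPM up to S3 and rose among non-globin transcripts.

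**Figure D1:**
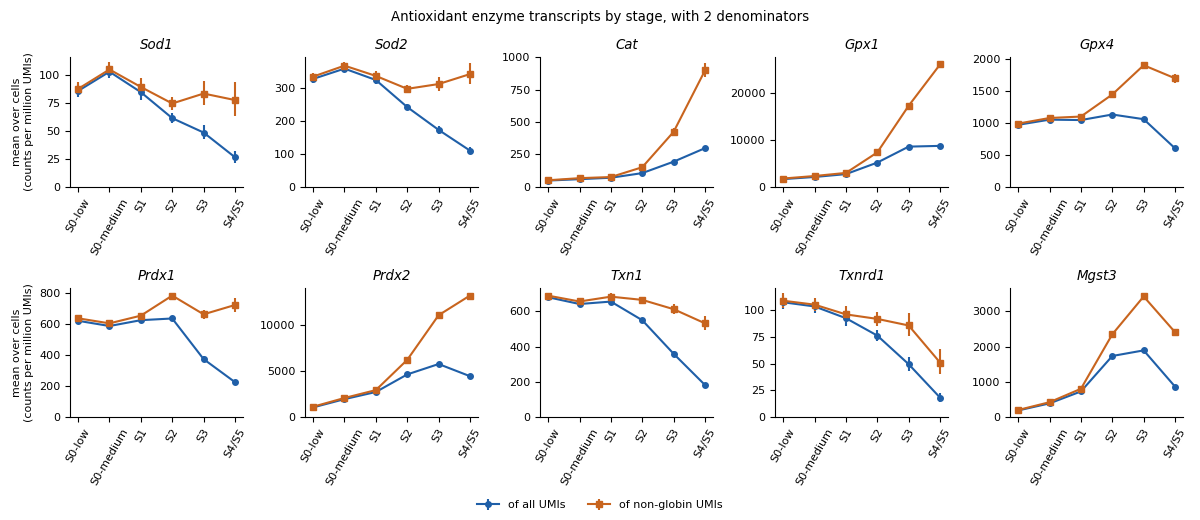
Mean level of each antioxidant gene (vertical axis, counts per 1000000 UMIs, each panel with its own scale from 0) in the 6 stages (horizontal axis). Circles count against all UMIs and squares against non-globin UMIs, with 95% intervals for counting error. The 2 lines part from S2 onward, and only in the panels of *Cat*, *Gpx1*, *Prdx2* and *Mgst3* are both lines higher in S3 than in S1 by more than 1.5-fold.

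The superoxide dismutases are the first step of the pathway. *Sod1* encodes the copper and zinc enzyme of the cytosol, and its level was 86.0 CPM in S0-low, then 103 (S0-medium), 84.9 (S1), 61.5 (S2) and 48.6 (S3), and 26.4 in S4/S5. Its level was highest in S0-medium and lowest in S4/S5, and S3 over S1 was 0.572 (0.49–0.667) in CPM. Among non-globin transcripts the levels lay between 74.7 and 105 in the 6 stages, and S3 over S1 was 0.934 (0.8–1.09). *Sod1* was counted sparsely, with 249 UMIs in S3 and 108 in S4/S5.

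*Sod2* encodes the manganese enzyme of mitochondria. It measured 329 CPM in S0-low, then 361 (S0-medium), 326 (S1), 243 (S2) and 173 (S3), and 110.0 in S4/S5. As for *Sod1*, the highest level was that of S0-medium and the lowest that of S4/S5. S0-low and S1 did not differ beyond counting error, with S1 over S0-low at 0.99 (0.937–1.05), but without the clusters of early progenitor and mast markers the ratio was 0.881 (0.833–0.932). S3 over S1 was 0.532 (0.491–0.576) in CPM and 0.927 (0.855–1.003) among non-globin transcripts.

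Catalase breaks down hydrogen peroxide without a reducing partner. *Cat* was the one member above 1 in CPM, non-globin CPM and UMIs per cell alike from S3 to S4/S5. Its level was 46.4 CPM in S0-low, then 57.2 (S0-medium), 68.2 (S1), 104 (S2) and 193 (S3), and 297 in S4/S5. In CPM each stage was higher than the one before it beyond counting error, and S4/S5 over S3 was 1.54 (1.40–1.70). The ratio stayed above 1 in UMIs per cell, at 1.33, and among non-globin transcripts it was 2.12 (1.93–2.33). In CPM this step lies close to the fold of 1.5 and stayed above 1 but under that fold when the antibody counts were scaled within each cell or no quality limits were set on cells. After each cell was thinned to 2000 UMIs, a *Cat* transcript was found in 8.17% (6.72–9.82) of S0-low cells, 28.2% (25.2–31.4) of S3 cells and 41.1% (37.9–44.4) of S4/S5 cells, while without thinning the shares were 27.7%, 52.3% and 61.3%. Each non-erythroid type held *Cat* transcripts, so none was taken as a background for these shares. The part of free RNA in them was not tested. After thinning the non-erythroid types gave shares from 6.10% in macrophage-like to 23.9% in hepatocyte-like cells.

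Among the glutathione peroxidases, *Gpx1* encodes the cytosolic selenoenzyme of red cells. Its level was 1592 CPM in S0-low, then 2050.2 (S0-medium), 2659 (S1), 5128 (S2) and 8544 (S3), and 8704 in S4/S5. It rose at every step up to S3, with S2 over S1 at 1.93 (1.89–1.97) and S3 over S2 at 1.67 (1.64–1.69). S4/S5 over S3 was 1.02 (1.003–1.03) in CPM, 1.51 (1.49–1.53) among non-globin transcripts and 0.87 in UMIs per cell, so the last step has no direction that all measures share.

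*Gpx4* encodes the selenoenzyme that reduces lipid peroxides in membranes. It measured 967 CPM in S0-low, then 1048 (S0-medium), 1041 (S1), 1128 (S2) and 1055 (S3), and 599 in S4/S5. Stages S0-medium and S1 did not differ beyond counting error, at 0.994 (0.964–1.02), and S3 over S1 was 1.01 (0.976–1.05). Among non-globin transcripts S3 over S1 was 1.73 (1.67–1.80), while in UMIs per cell it was 0.542. S4/S5 was lower than S3 in CPM, at 0.567 (0.54–0.596).

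The peroxiredoxins *Prdx1* and *Prdx2*, both cytosolic enzymes that use thioredoxin, moved in opposite directions in CPM from S1 to S3. *Prdx2* measured 1057 CPM in S0-low, then 1952 (S0-medium), 2727 (S1), 4629 (S2) and 5755 (S3), and 4436 in S4/S5. The rise began at the first step, with S0-medium over S0-low at 1.85 (1.80–1.89), and the level was highest in S3. S4/S5 over S3 was 0.771 (0.756–0.786) in CPM and 1.19 (1.17–1.22) among non-globin transcripts. *Prdx1* measured 623 CPM in S0-low, then 589 (S0-medium), 627 (S1), 638 (S2) and 375 (S3), and 226 in S4/S5. Its levels stayed close to each other up to S2 and then fell in CPM, with S3 over S2 at 0.588 (0.559–0.619) and S4/S5 over S3 at 0.603 (0.557–0.653). From S3 to S4/S5 both genes thus fell in CPM, while among non-globin transcripts *Prdx1* over the same step was 1.09 (1.01–1.18). Among non-globin transcripts *Prdx1* did not differ from S1 to S3 beyond counting error, at 1.01 (0.959–1.07), and lay between 606 and 786 in all 6 stages.

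Thioredoxin and its reductase supply the peroxiredoxins with electrons. *Txn1*, the cytosolic thioredoxin, measured 679 CPM in S0-low, then 641 (S0-medium), 654 (S1), 549 (S2) and 359 (S3), and 182 in S4/S5. *Txnrd1*, its selenium-containing reductase, measured 108 CPM in S0-low, then 104 (S0-medium), 92.7 (S1), 76.4 (S2) and 49.6 (S3), and 18.3 in S4/S5. Both were lower in S3 than in S1, at 0.548 (0.519–0.58) and 0.535 (0.46–0.621). Among non-globin transcripts these ratios were 0.896 (0.847–0.947) and 0.892 (0.767–1.03). From S3 to S4/S5 *Txnrd1* fell under the 3 measures given here, with 0.369 (0.282–0.478) in CPM, 0.596 (0.456–0.772) among non-globin transcripts and 0.285 in UMIs per cell, although S4/S5 held only 77 UMIs of the gene.

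*Mgst3* encodes a microsomal glutathione transferase with peroxidase activity. It had the widest range of the 10 genes, with 190.3 CPM in S0-low, then 391 (S0-medium), 729.8 (S1), 1736 (S2) and 1895 (S3), and 866 in S4/S5. The rise began within the class of low Ter119, with S1 over S0-low at 3.83 (3.62–4.06), and S3 over S1 was 2.60 (2.50–2.70). The median Ter119 count also rose within that class, from 4 in S0-low to 14 in S1. S3 was the highest stage in CPM and among non-globin transcripts, where the levels ran 203, 424, 805, 2351, 3425 and 2411 from S0-low to S4/S5. From S3 to S4/S5 *Mgst3* fell to 0.457 (0.439–0.476) of its level, and to 0.704 (0.676–0.733) among non-globin transcripts, while median-of-ratios size factors put this step just above 1. An *Mgst3* transcript was found in 26.7% (24.3–29.3) of thinned S0-low cells and 90.6% (88.9–92.2) of S2 cells. In thinned non-erythroid cells the share ran from 14.6% in macrophage-like to 32.4% in hepatocyte-like cells, so S0-low lay within that range. The median depth was 6328.5 UMIs in macrophage-like cells against 6017 in S2. Without thinning the shares were 60.7% in S0-low, 99.3% in S2, 39.0% in macrophage-like and 84.6% in hepatocyte-like cells.

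The members' counts were then read against all genes. From S0-low to S1, 3 of the 10 members were called higher in CPM (*Prdx2*, *Gpx1*, *Mgst3*) and 0 lower, where 7.78% of 8944 genes were called higher and 26.8% lower. Among non-globin transcripts *Cat* joined them, which made 4 higher and 0 lower, against 8.63% and 25.6% of all genes. *Cat* lay at the border, at 1.47 (1.28–1.69) in CPM, and without the clusters of early progenitor and mast markers it did not pass among non-globin transcripts either, at 1.47 (1.27–1.70).

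From S1 to S3, 4 members were called higher (*Cat*, *Prdx2*, *Gpx1*, *Mgst3*), where 6.9% of 7539 genes were. The 5 members called lower are read against a background of 75.5% of genes, since most transcripts fell in CPM. The median log2 ratio was -0.36 over the members and -1.27 over all genes, and each of the 5 fell by less than the median gene. Among non-globin transcripts 5 members were higher, *Gpx4* being the added one, and 0 lower, against 15.0% and 48.0% of all genes, with medians of 0.41 and -0.58.

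From S3 to S4/S5, 1 member (*Cat*) was called higher in CPM, against 0.98% of 5509 genes. The 7 members called lower stood against 70.2% of genes, with a median log2 ratio over all genes of -0.92. Among non-globin transcripts *Cat* and *Gpx1* were called higher, against 9.0% of genes, and *Txnrd1* alone was called lower, against 20.0%.

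**Figure D2:**
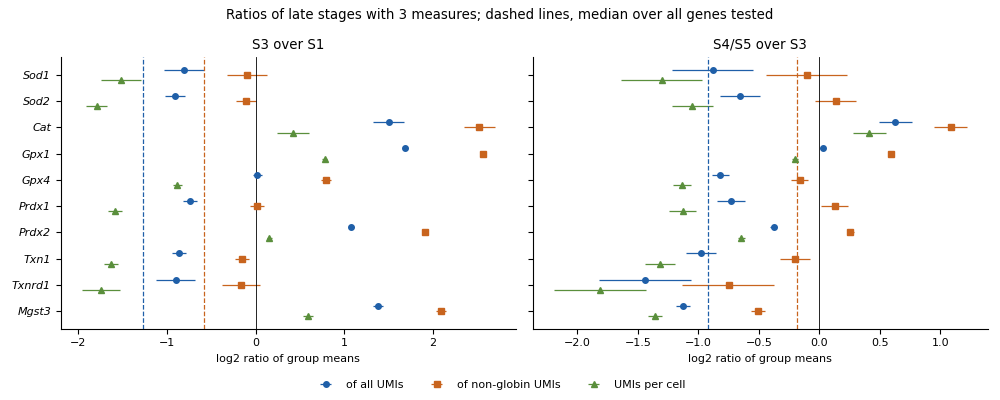
Log2 ratio of group means (horizontal axis) of each gene (rows) for S3 over S1, left, and S4/S5 over S3, right, in CPM (circles), non-globin CPM (squares) and UMIs per cell (triangles). Bars are 95% intervals for counting error and dashed lines the median over all genes tested, in the colour of the measure. In S3 over S1, *Cat*, *Gpx1*, *Prdx2* and *Mgst3* lie right of 0 for all 3 measures, and in S4/S5 over S3 only *Cat* does.

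The order of the cells by antibody count gave the levels without class borders. Along 10 equal groups of lineage-low cells by Ter119, *Cat* went from 49.7 CPM in the lowest to 267 in the highest. *Mgst3* was highest in the seventh group, at 1997 CPM, and 1058 in the highest. The median Ter119 count of the seventh group was 67, below the border of the high class at 88.5, while by stage *Mgst3* was highest in S3. *Gpx4* was also highest in the seventh group, at 1147. *Prdx2* was highest in the eighth, at 5523, and *Gpx1* in the ninth, at 8883. In CPM the other 5 genes were lowest in the group with the most Ter119. Among non-globin transcripts *Prdx2* and *Gpx1* were highest in that group, at 12792 and 24261, and *Mgst3* in the eighth, at 3189. *Prdx1* went from 561 in the lowest to 718 in the highest on that scale, *Sod2* was lowest in the sixth, at 295, and *Cat* went from 52.4 to 801.

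Within cells of high Ter119, CD71 is lost as the cells mature. From the tenth of these cells with most CD71 to the tenth with least, the globin share went from 26.7% to 73.7% of UMIs. *Cat* was 118 CPM at the high end and 289.7 at the low end, and *Mgst3* 2125 and 423. Among non-globin transcripts the difference between these 2 genes remained, with *Cat* at 199 and 1045 and *Mgst3* at 3331 and 1588. *Gpx1* was lowest at both ends in CPM (6933 and 7364) and highest in the middle, at 9857 in the fifth group. Among non-globin transcripts it went from 11451 to 27222.

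**Figure D3:**
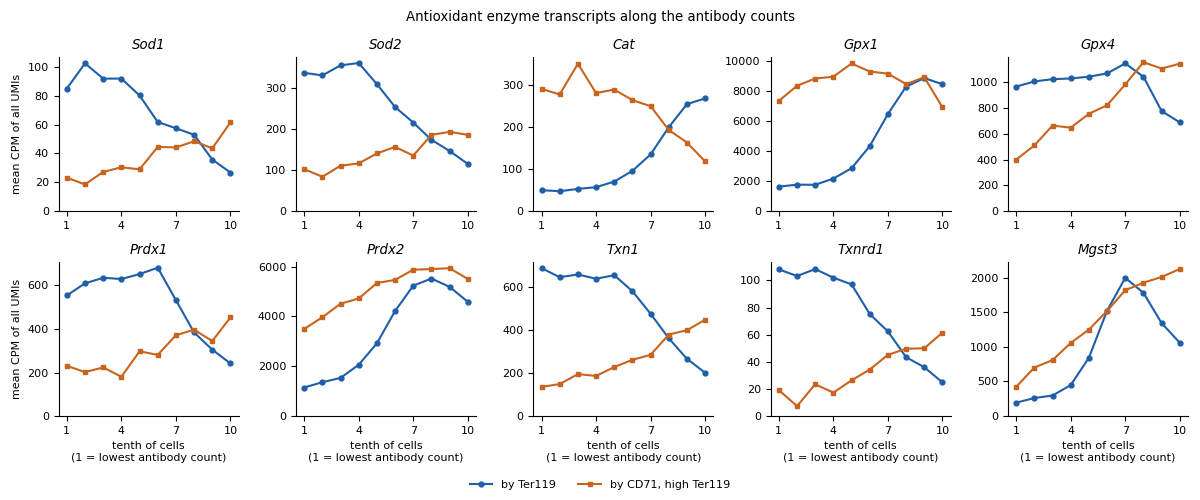
Mean level in CPM (vertical axis, from 0) in 10 equal groups of cells (horizontal axis, 1 having the lowest antibody count), ordered by Ter119 among lineage-low cells (circles) and by CD71 among cells of high Ter119 (squares). *Mgst3* peaks at 1997 CPM in the seventh Ter119 group. *Cat* is 118 CPM with most CD71 and 289.7 with least.

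Against the non-erythroid cells the genes again divided. In CPM, 4 members were higher in S3 (*Cat*, *Prdx2*, *Gpx1*, *Mgst3*) and 4 lower (*Prdx1*, *Sod1*, *Txn1*, *Txnrd1*), where 8.43% of 9526 genes were called higher and 76.6% lower. For *Sod1* the call does not hold for each type. S3, at 48.6 (42.7–55.0) CPM, overlapped myeloid-like (52.2 (44.4–61.0)), macrophage-like (51.5 (34.5–74.0)) and megakaryocyte-like cells (59.5 (44.4–78.0)). It lay below hepatocyte-like (164) and mesenchymal-like cells (108). The calls of *Txnrd1* and *Txn1* do not hold for each type either. In CPM, S3 passed the fold in *Txnrd1* over macrophage-like (0.228) and mesenchymal-like cells (0.525). It did not over myeloid-like (0.75), megakaryocyte-like (0.698) or hepatocyte-like cells (0.676). In *Txn1* it passed over myeloid-like (0.546), mesenchymal-like (0.527) and macrophage-like cells (0.462), but not over megakaryocyte-like (0.725) or hepatocyte-like cells (0.757). Among non-globin transcripts 6 were higher, with *Gpx4* and *Sod2* added, and *Prdx1* alone was lower, against 15.5% and 57.2% of genes. Cells of all types came from the same library, so free RNA in the droplets is shared between them.

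*Prdx2* was 520.4 CPM in the non-erythroid cells together, between 377 in megakaryocyte-like and 826 in mesenchymal-like cells. S3 was higher, at 11.1 (10.7–11.4), and S0-low already lay above each of the 5 types. *Mgst3* was 147 CPM in the non-erythroid cells, between 92.0 in megakaryocyte-like and 206 in hepatocyte-like cells, and S3 over them was 12.9 (12.1–13.7). S0-low did not differ beyond counting error from hepatocyte-like cells in *Mgst3*, at 0.926 (0.833–1.03), and measured 220.2 CPM without the clusters of early progenitor and mast markers. If all α-globin in a type were free RNA of the library's composition, free RNA would give 64.9% of the *Mgst3* and 65.6% of the *Prdx2* of the non-erythroid cells, so these levels are upper limits.

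*Gpx1* was 2223 CPM in myeloid-like cells, 1462 in macrophage-like, 923 in mesenchymal-like, 606 in megakaryocyte-like and 414 in hepatocyte-like cells. Myeloid-like cells thus lay between S0-medium and S1. Under the same assumption on free RNA, it would give 22.6% of the level in myeloid-like and 82.5% in hepatocyte-like cells. *Cat* was highest outside the erythroid cells in hepatocyte-like cells, at 121 (107–136) CPM, between S2 and S3. Among non-globin transcripts it was 123 there, below S2 at 150.

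*Prdx1* was lower in S3 than in the non-erythroid cells together, at 0.197 (0.187–0.206). Its level was 4401 (4315–4488) CPM in hepatocyte-like cells, 2441 (2308–2579.9) in mesenchymal-like, 2287 (2162–2417) in macrophage-like and 900.2 (867–934) in myeloid-like cells. These 4 types were above every erythroid stage. Megakaryocyte-like cells, at 553 (507–603) CPM, were below S0-low, S1 and S2, while their interval overlapped that of S0-medium, 589 (575–603). S3 over megakaryocyte-like cells was 0.678 (0.615–0.749) in CPM and 1.19 (1.08–1.31) among non-globin transcripts. S3 over hepatocyte-like cells was 0.085 (0.081–0.09). If free RNA had the library's composition, as assumed above, it would give 2.21% of the hepatocyte-like level. Hepatocyte-like cells also had the highest *Sod1*, at 164 (146–182) CPM. *Txnrd1* was highest in macrophage-like cells, at 218 (181–259.6) CPM, and *Gpx4* in megakaryocyte-like cells, at 1727 (1641–1816). Among non-globin transcripts *Gpx4* was higher in S3, at 1900, than in megakaryocyte-like cells, at 1743.

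**Figure D4:**
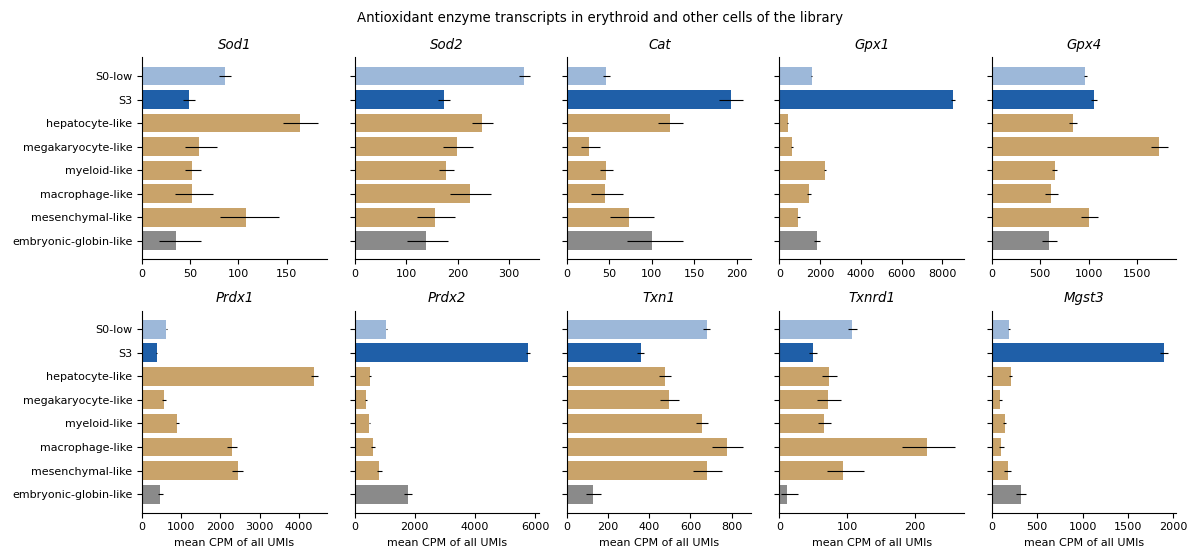
Mean CPM (horizontal axis, bars from 0, each panel with its own scale) of each gene in S0-low and S3 (blue), 5 types of non-erythroid cells (tan) and the cells rich in embryonic globin (grey), with 95% intervals for counting error. *Prdx2*, *Gpx1* and *Mgst3* are highest in S3, while *Prdx1* is highest in hepatocyte-like cells, at 4401 CPM.

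The other genes of the redox system were taken from lists chosen along with the members, and compared between S3 and S0-low. At that distance 8.5% of 8726 genes were called higher and 77.5% lower in CPM, and 15.6% and 57.9% among non-globin transcripts. Brackets after a ratio are again counting intervals in CPM.

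Of 8 genes for heme breakdown, quinone reduction and iron storage, 5 were higher under both denominators (*Hmox1*, *Blvrb*, *Nqo1*, *Fth1*, *Ftl1*) and 2 lower (*Hmox2*, *Park7*), with a median log2 ratio of 1.63 against -1.60 for all genes. *Hmox1* rested on 34 UMIs in S0-low and 59 in S3 (3.76 and 12.6 CPM), against 3212 CPM in macrophage-like cells. It was also among the 10 leading genes of the cluster rich in embryonic globin, which gave 3 cells to S0-low and 13 to S3. How far these account for its rise was not tested. *Blvrb*, biliverdin reductase B, went from 413 to 1943 CPM, a ratio of 4.70 (4.53–4.88), and *Nqo1*, a quinone reductase, from 7.75 to 40.6 CPM, at 5.24 (3.98–6.96). *Hmox2*, the constitutive heme oxygenase, went from 40.1 to 10.99 CPM and *Park7*, a sensor of oxidation, from 786 to 226 CPM.

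The next list held 5 genes, for other peroxiredoxins and sulfiredoxin. *Prdx3*, the mitochondrial peroxiredoxin, and *Srxn1*, the sulfiredoxin that restores overoxidised peroxiredoxins, were higher. *Prdx3* went from 292 to 696 CPM, at 2.39 (2.27–2.51), and *Srxn1* from 8.22 to 51.8 CPM, at 6.31 (4.83–8.31). *Prdx4*, *Prdx5* and *Prdx6* were lower, with *Prdx5* at 0.202 (0.174–0.233) and *Prdx6* at 0.218 (0.203–0.234). The median log2 ratio of the list was -1.83, against -1.60 over all genes.

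The list of the other thioredoxin system held 13 genes, glutaredoxins and methionine sulfoxide reductases among them. Of these, 2 were higher and 10 lower in CPM, against 8.5% and 77.5% of all genes. Among non-globin transcripts 7 were lower, against 57.9% of all genes. Both counts of lower genes lie near those shares. *Txnrd2*, the mitochondrial reductase, went from 47.7 to 161 CPM, at 3.38 (3.0–3.80), in contrast to *Txnrd1*. *Glrx5*, which takes part in building iron-sulfur clusters, went from 1170.0 to 1932 CPM, at 1.65 (1.61–1.70), a call lost in CPM without the clusters of early progenitor and mast markers. *Msrb2*, a methionine sulfoxide reductase, had the ratio 0.06 (0.034–0.1) and *Txnrd3* 0.059 (0.012–0.18), the latter on few counts.

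Glutathione synthesis was represented by 6 genes, of which 5 could be compared. *Gclm*, the modifier subunit of the rate-limiting ligase, went from 416 to 1225 CPM, at 2.94 (2.82–3.07), and *Gss*, glutathione synthetase, from 22.7 to 68.9 CPM, at 3.04 (2.54–3.64). *Gclc*, the catalytic subunit, had a ratio of 0.908 (0.763–1.08), which does not pass the fold, and *Ggct*, which breaks down γ-glutamyl peptides, fell to 0.073 (0.037–0.131). Among non-globin transcripts *Gsr*, glutathione reductase, was also called higher.

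Of 8 glutathione transferases compared, 0 were higher and 7 lower in CPM, and 1 (*Mgst1*) higher and 4 lower among non-globin transcripts. Of all genes 77.5% were lower in CPM and 57.9% among non-globin transcripts. *Gsto1* and *Gstz1* had the lowest ratios, 0.124 (0.104–0.146) and 0.207 (0.134–0.307). *Mgst1* and *Gstm5* had the highest, 0.911 (0.597–1.36) and 0.655 (0.592–0.724), and without the clusters of early progenitor and mast markers *Mgst1* was called higher and 6 were lower in CPM. From S0-low to S1, 2 were called higher in CPM (*Gsta4*, *Gstm5*) and 3 lower (*Gstm1*, *Gsto1*, *Mgst1*). Of all genes 7.78% were higher and 26.8% lower. Without the clusters of early progenitor and mast markers *Gstm5* was no longer called higher, nor *Mgst1* lower. From S1 to S3, 1 (*Mgst1*) was called higher in CPM and 5 lower, against 6.9% and 75.5% of all genes. *Mgst1* was sparse, at 10.2 CPM in S0-low, 3.51 in S1 and 9.32 in S3 (36 UMIs), against 747 in hepatocyte-like cells. The part of free RNA in its stage levels was not tested.

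For the supply of NADPH, 1 of 6 genes was higher and 4 were lower in CPM, or 3 without the clusters of early progenitor and mast markers. Of all genes 8.5% were higher and 77.5% lower in CPM. *Taldo1*, transaldolase, went from 268 to 656 CPM, at 2.45 (2.32–2.58). *G6pdx*, the first enzyme of the pentose phosphate pathway, had a ratio of 0.7 (0.537–0.904) in CPM and 1.19 among non-globin transcripts. *Pgd*, the next dehydrogenase of that pathway that yields NADPH, fell to 0.204 (0.158–0.26) and *Idh2*, of mitochondria, to 0.14 (0.116–0.169).

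*Gpx1*, *Gpx4* and *Txnrd1* encode selenoproteins, whose synthesis needs a dedicated set of factors. All 5 of these in the list (*Secisbp2*, *Eefsec*, *Sephs2*, *Pstk*, *Sepsecs*) were lower under both denominators. Of all genes 77.5% were lower in CPM and 57.9% among non-globin transcripts. The median log2 ratio of the 5 was -2.42 in CPM and -1.71 among non-globin transcripts, against -1.60 and -0.88 over all genes. *Eefsec*, the elongation factor, fell to 0.154 (0.105–0.219) and *Pstk*, a kinase of the selenocysteine tRNA, to 0.177 (0.141–0.221). *Sepsecs* and *Secisbp2* had the least low ratios, 0.405 (0.237–0.663) and 0.301 (0.236–0.379). The transcript of *Gpx1* rose over the same interval, at 5.37 (5.26–5.47).

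Of 8 regulators of redox genes, 4 were higher in CPM (*Nfe2*, *Mafg*, *Mafk*, *Foxo3*) and 3 lower (*Nfe2l1*, *Nfe2l2*, *Keap1*), while among non-globin transcripts 5 were higher and 0 lower. The shares of all genes were 8.5% and 77.5% in CPM, and 15.6% and 57.9% among non-globin transcripts. Without the clusters of early progenitor and mast markers *Bach1* took the place of *Mafk* among those higher in CPM. *Nfe2*, an erythroid transcription factor related to NRF2, went from 66.9 to 206 CPM, at 3.08 (2.78–3.42), and *Foxo3* from 58.4 to 127 CPM, at 2.18 (1.91–2.47). *Keap1*, which holds NRF2 in check, had a ratio of 0.489 (0.404–0.589) in CPM and 0.847 among non-globin transcripts, and *Nfe2l1* 0.503 (0.346–0.715) and 0.99. The 4 genes *Gpx3*, *Gpx7*, *Gpx8* and *Sod3* had under 50 UMIs over both stages and were not compared.

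The genes whose levels followed a member most closely were found by Pearson's r of log2(mean CPM + 10) over 11 points, the 6 stages and 5 cell types of the 1 library, among 8034 genes. The points share the library and the denominator, so r is a description. For *Prdx2* these were *Rhd* (0.996), *Sox6* (0.989) and *Cir1* (0.987). For *Mgst3* they were *Slc6a9* (0.99), *Bsg* (0.986) and *Brpf3* (0.98). For *Cat* they were *Slc25a39* (0.983), *Cdkn1b* (0.948) and *Snx15* (0.917). For *Gpx1* they were *Akap7* (0.963), *D1Ertd622e* (0.949) and *Eif2ak1* (0.947). Between members r was highest for *Prdx2* with *Mgst3* (0.963) and for *Txn1* with *Txnrd1* (0.908), and lowest for *Cat* with *Txn1* (-0.807).

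The members lie on 8 chromosomes of GRCm38. *Prdx1* (chr4:116685599-116700000) and *Txn1* (chr4:57943373-57956411) share chromosome 4, and *Gpx4* (chr10:80047166-80056439) and *Txnrd1* (chr10:82833951-82897724) chromosome 10. *Prdx2* is at chr8:84969622-84974811, *Gpx1* at chr9:108339080-108340342, *Cat* at chr2:103453904-103485153 and *Mgst3* at chr1:167371966-167393841. *Sod1* is at chr16:90220762-90226333 and *Sod2* at chr17:13007839-13018119. RefSeq places other genes within the span of *Prdx1* (*AV051173*) and of *Txnrd1* (*Gm38560*, *Eid3*).

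Promoter windows of RefSeq, each of 300 bases from 250 before to 50 after a gene start, were searched on both strands for 3 motifs. All 10 members matched, with 15 windows in all since *Gpx4* has 4 starts and *Txnrd1* 3. One motif was TGACNNNGC, the core of the antioxidant response element, which NRF2 and its relatives bind. It was in 3 of the 15 windows, of *Prdx1*, *Sod1* and *Txnrd1*, and in 12.4% of all 32851 windows. The letters AGATAA, a form of the GATA motif, were in 0 of the 15 windows and in 11.2% of all. Other forms of that motif were not searched for. The letters TGAGTCA, shared by NF-E2 and AP-1 sites, were in the *Prdx1* window alone, at 2 places, and in 5.2% of all windows. The members that rose in CPM held none of these letters in their windows, which says nothing on sites elsewhere. *Prdx1*, *Sod1* and *Txnrd1*, with the first motif, fell in CPM from S1 to S3, and so did *Sod2* and *Txn1* without it. A link between these letters and the levels was not tested. The stretches around the 3 matches of the first motif are listed. Capitals are the match, which in each case reads on the opposite strand, and in *Prdx1* it overlaps a TGAGTCA match.
Prdx1, chr4:116685436-116685504, plus strand: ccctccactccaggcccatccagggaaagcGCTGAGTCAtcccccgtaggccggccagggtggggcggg
Sod1, chr16:90220676-90220744, plus strand: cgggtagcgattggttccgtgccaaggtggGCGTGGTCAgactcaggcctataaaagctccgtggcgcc
Txnrd1, chr10:82859084-82859152, plus strand, the second of its 3 starts: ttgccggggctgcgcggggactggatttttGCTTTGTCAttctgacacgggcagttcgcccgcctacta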

How the data were processed

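The members and the gene lists were chosen with earlier results of these data known. The authors mapped the cDNA reads of a 10x 3′ library to mm10 with Cell Ranger and deposited raw UMI counts per gene and cell. The antibody counts per cell were deposited raw as well. Per the labels, the processing also used Seurat. No deposited value was normalized. Reads that fit copies of a gene equally well are not counted by this kind of counting, so genes with near-identical copies can be undercounted.

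Limits of 300 and 5000 genes per cell and of 9% mitochondrial UMIs removed 508 cells, and Scrublet called 128 doublets (1.63%) at an expected rate of 6%. Ter119 and CD71 counts were put on a centered log ratio scale (across cells) and split by k-means into 3 classes of Ter119, 3 of CD71 at low Ter119 and 2 at high Ter119. Cells of intermediate Ter119 with less CD71 (215 in all) have no stage. Lineage-low cells had at most 95.8 counts of the lineage antibodies, the median plus 2 scaled median absolute deviations on a log scale. Leiden clusters used 2000 variable genes less 3 members, 16 principal components, 30 neighbours and a resolution of 0.8. A name needed at least 1 marker among the top 10 genes by fold, more than for any other type, and 3 markers raised, a rule set after the clusters were seen. An erythroid marker is not reported here and was left out of the marker sums. It put 249 of the 1510 cells in the S0-low gate into non-erythroid clusters.

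Levels are means over cells of counts per 1000000 UMIs. Intervals are exact Poisson for sums, exact Clopper-Pearson for shares, and for ratios the exact binomial interval of the summed UMIs. On simulated counts for S3 over S1 with 13516 genes, of which 200 were changed, 186 were called with the correct sign and 191 had their true ratio inside the interval. Of 7350 unchanged genes, 135 were called and 6834 had their true ratio inside the interval. The simulated cells drew Poisson counts from a shared composition, so further spread between real cells was left out. An interval weighted like the mean over cells, added after the data were seen, held the true ratio for 194 of the 200 and 7052 of the 7350. It moved 1 of 230 ratios of the members to another side of 1. Genes were named by a rule: all 10 members, of each other list the 2 highest and 2 lowest ratios of S3 over S0-low, and the 3 genes most like each of the 4 members of widest range. *Hmox1*, *Fth1*, *Ftl1* and other genes are also named where a count is spelled out. Positions and promoters are from RefSeq on GRCm38.p6, the assembly of mm10. The tools were scanpy 1.11.5, scikit-learn 1.9.0, igraph 0.11.9, pandas 2.3.3, scipy 1.17.1, numpy 2.4.6 and matplotlib 3.10.9 under Python 3.11.15, with seed 7.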

Additional observations from a re-analysis of the deposited data

How the results depend on the processing

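No paired analysis was possible because the data are 1 library, and for the same reason no replicate could be left out. Under 16 alternatives to the levels, 14 kept the direction of all 28 called ratios of the members, and the 2 that did not changed the denominator. Non-globin CPM turned *Prdx1* in S3 over S1 (log2 ratio 0.019) and in S4/S5 over S3 (0.13), and *Sod2* in S4/S5 over S3 (0.13). It left 0 members lower in S3 over S1, 2 higher and 1 lower in S4/S5 over S3, and 1 lower in S3 over non-erythroid cells. Median-of-ratios size factors turned 14. In S3 over S1 they gave *Prdx1* 0.33, *Sod1* 0.40, *Sod2* 0.13, *Txn1* 0.29 and *Txnrd1* 0.18, with 0 members lower. In S4/S5 over S3 they gave *Prdx1* 0.29, *Gpx4* 0.29, *Sod1* 0.12, *Sod2* 0.37, *Txn1* 0.10 and *Mgst3* 0.068, with 3 members higher and 0 lower. In S3 over non-erythroid cells they gave *Sod1* 0.18, *Txn1* 0.26 and *Txnrd1* 0.17, with 1 member lower. With UMIs per cell 2 members were higher in S3 over S1 and 0 in S4/S5 over S3. The call of *Cat* in S4/S5 over S3 was also lost, leaving 0, with the log ratio within each cell, with no quality limits and with a fold of 2. That fold left 0 members lower in S3 over S1, 2 lower in S4/S5 over S3 and 1 lower in S3 over non-erythroid cells. The other 136 of 152 counts of members called stayed within 1.5 times. At a cluster resolution of 0.4, 1506 cells were non-erythroid and 774 were left in S0-low. Without thinning all 60 shares of cells with a UMI left their interval. The sizes of the ratios depend on the gates. With log10 antibody counts S3 held 1879 cells, 16 of 40 ratios stayed within their interval and the largest shift was 0.989 on the log2 scale, of *Mgst3* in S3 over S1 (2.37). With the log ratio within each cell 7 of 40 did, with a largest shift of 0.60. Leaving out the clusters of early progenitor and mast markers, added after the data were seen, moved no count of members in these 4 comparisons. Low depth limits *Sod1* and *Txnrd1* in S4/S5, with 108 and 77 UMIs.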

Other observations

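A cluster of 73 cells was led by the embryonic globin genes *Hbb-y*, *Hba-x* and *Hbb-bh1*, and 81.7% of its UMIs were globin. Red cells of the yolk sac, which express these globins, circulate in the embryo at this age. Their globin genes defined the cluster, while the antioxidant genes took no part in the clustering. *Gpx1* was 1853 (1716–1999) CPM, against 8704 in S4/S5, a stage that holds 39 cells of this cluster, a ratio of 0.213 (0.197–0.23), and 0.373 (0.345–0.403) among non-globin transcripts. *Mgst3* (317 (262–379) CPM), *Cat* (99.6 (70.5–137)) and *Prdx2* (1768 (1635–1909)) were also below S4/S5, at 0.366 (0.302–0.439), 0.335 (0.236–0.463) and 0.399 (0.368–0.431) in CPM. Among non-globin transcripts these ratios were 0.689 (0.568–0.828), 0.629 (0.443–0.869) and 0.727 (0.672–0.787), so that *Mgst3* and *Prdx2* no longer passed the fold. *Prdx1* was above S4/S5, at 2.04 (1.72–2.41) in CPM and 3.47 (2.93–4.10) among non-globin transcripts. *Sod2* was 138 (102–182) CPM and did not differ beyond counting error from S4/S5 in CPM, at 1.25 (0.915–1.68), but was above it among non-globin transcripts, at 2.14 (1.56–2.87). *Txnrd1* rested on 4 UMIs and *Sod1* on 12.

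The 10 members together took 0.565% of all UMIs in S0-low, 0.845% in S1, 1.71% in S3 and 1.49% in S4/S5, against 0.61% in the non-erythroid cells.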
